A study of Homo sapiens with 8 samples.

Results

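RBFOX2 is the gene of a splicing regulator, and its mRNA was chosen by the authors' log2 folds over input, because it carried one of the highest LARP6 sites of the series, close to the 3′ end of the gene. All regions were taken whose midpoint lay within the bounds of RBFOX2 on its own strand, which gave 98 of the 178461 regions in the 6 deposited lists. Of these, 16 and 28 lay in the peak lists of TGFβ1 replicates 1 and 2, 24 and 22 in those of control replicates 1 and 2, 3 in the reproducible list of TGFβ1 and 5 in that of control. Since the gene was selected on the height and place of its strong site, both are given as a description.

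LARP6 belongs to the La-related family of RNA-binding proteins and is best known for its contact with the 5′ region of collagen mRNAs. RBFOX2 binds RNA through a single RNA recognition motif and, from introns beside an exon, promotes or blocks the use of that exon. It is known for regulating exons that differ between epithelial and mesenchymal cells.

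The assay was eCLIP, in which RNA fragments crosslinked to a protein by ultraviolet light are pulled down with an antibody against it and compared with input RNA of the same gel size range. Human hepatic stellate cells, labelled wild type, which make the liver's fibrous matrix, were given TGFβ1 at 5 ng/ml or none. Cells without TGFβ1 are called control here, since their labels say DMSO in one field and untreated in another. Each condition had 2 immunoprecipitated libraries and 2 inputs, which are present here as the denominator of each fold. No source used here gives the origin of the cells or ties replicates to separate cultures, so p-values measure the spread between libraries, which may be technical. The values are those the authors gave to each tested cluster, namely its log2 fold over input and the −log10 p-value of that fold. A cluster was called enriched where both were at least 3, the limits that both reproducible lists keep to. The lists hold no read counts, so the depth is unknown. Between 31137 and 54536 clusters were tested per library. Of 10 stellate cell markers, 7 had tested clusters in each library, COL1A1, COL1A2, COL3A1 and ACTA2 among them, while DES, LRAT and RGS5 had none. No hepatocyte or endothelial marker had one. Of 3 macrophage markers CD68 had 2 and 4 tested clusters in the TGFβ1 libraries and 2 and 4 in the control libraries, and of 3 cholangiocyte markers KRT7 had 13 and 17 in TGFβ1 and 1 and 2 in control.

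RBFOX2 lies on chromosome 22 (GRCh38, 35738736 to 36028824, minus strand), where it spans 290089 nt. The nearest protein-coding genes are APOL5, 9252 nt beyond the 3′ end, and APOL3, 111498 nt beyond the 5′ end. All 90 clusters of the 4 libraries within these bounds were on the minus strand, and 0 were on the plus strand. The strand of the gene was read from those same clusters. The pseudogene NDUFA9P1 lies inside RBFOX2 and overlapped 1 cluster, in control replicate 1. The pseudogene RPL41P3, also inside RBFOX2, overlapped 0. Exons and untranslated regions were not annotated in the table used here, so positions are given as distances from the ends of the gene.

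The RBFOX2 mRNA carried a single enriched site in each of the 4 libraries. In TGFβ1 replicate 1 the site ran from 35739313 to 35739413 (101 nt), and in TGFβ1 replicate 2 from 35739314 to 35739412 (99 nt). In control replicate 1 it ran from 35739314 to 35739415 (102 nt), and in control replicate 2 from 35739315 to 35739413 (99 nt). Its 3′ edge thus lay 577 to 579 nt, and its 5′ edge 676 to 679 nt, from the annotated 3′ end of RBFOX2. No cluster was tested between the site and the 3′ end. On the 5′ side the next tested cluster began 819 and 1147 nt away in the TGFβ1 libraries and 1199 and 827 nt away in the control libraries.

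In each library the site was listed as several abutting enriched pieces. There were 3 and 6 pieces in the TGFβ1 libraries and 6 and 5 in the control libraries, out of 16, 28, 24 and 22 tested RBFOX2 clusters. Of all clusters of a library, in genes or not, 2.69% and 3.64% were enriched in the TGFβ1 libraries and 1.21% and 2.09% in the control libraries. Since the height of the site chose the gene, nothing is read from that comparison. The pieces made up 11.4% and 6.35% of the tested length of RBFOX2 in the TGFβ1 libraries and 10.3% and 10.5% in the control libraries. The groups overlapped in the number of pieces and of tested clusters, each with a TGFβ1 minus control difference of −1.0. The pieces are parts of the site that chose the gene, so their number is given without a p-value. For tested clusters p was 1.0 by a two-sided exact permutation test. With 2 libraries against 2 such a test cannot give a p below 0.333. Tested RBFOX2 clusters were 0.0514% and 0.0513% of all clusters in the TGFβ1 libraries, and 0.0468% and 0.0552% in the control libraries. In such bulk libraries fewer cells with an RNA and less of it per cell cannot be told apart.

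**Figure D1:**
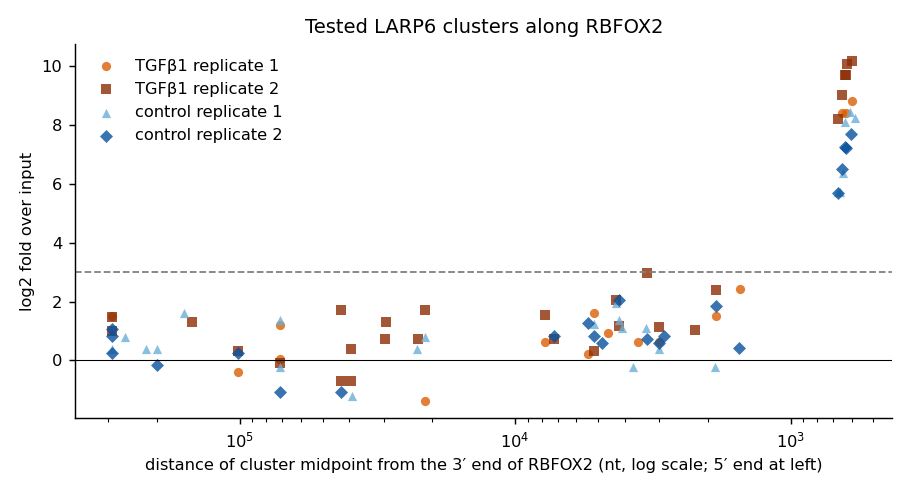
Log2 fold over input (vertical axis) of the 90 tested RBFOX2 clusters against the distance of their midpoint from the 3′ end of the gene (nt, log scale, 5′ end at left), with 1 symbol per library and the enrichment limit of 3 as a dashed line. The 20 clusters of the site stand between 5.69 and 10.17 near the right edge, and the other 70 lie below the line.

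Elsewhere in RBFOX2 only scattered stretches were tested, and none of them was enriched. Site included, tested clusters covered 884 and 1560 nt of the 290089 nt in the TGFβ1 libraries, and 991 and 942 nt in the control libraries. Nothing can be said of the untested stretches. Beyond the site, 70 clusters from the 4 libraries had log2 folds between −1.38 and 2.97, and 0 were enriched. They were spread over the classes of distance from the 3′ end, with 7 at 1000 to 2500 nt, 18 at 2500 to 5000 nt, 10 at 5000 to 10000 nt, 13 at 10000 to 50000 nt and 22 further away. Their median log2 fold was 0.62 and 1.09 in the TGFβ1 libraries and 0.59 and 0.72 in the control libraries. The medians of all clusters were 0.94 and 0.82 in the TGFβ1 libraries and 0.38 and 0.85 in the control libraries. Away from its site RBFOX2 thus differed from the library median by 0.13 to 0.32 on the log2 scale. The cluster nearest to the limit was in TGFβ1 replicate 2, with a log2 fold of 2.97 and a −log10 p of 3.17. At that place, 3317 nt from the 3′ end, TGFβ1 replicate 1 had no tested cluster and the control libraries had 1.12 and 0.72. The lowest enriched piece, in control replicate 2, had a log2 fold of 5.69, so no RBFOX2 cluster lay between 2.97 and 5.69.

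Merged across libraries, the 90 clusters made 36 loci, of which 6 were tested in all 4 libraries and 19 in a single one. One of the 6 is the site. The locus at the 5′ end of RBFOX2, 441 nt from it, gave 1.49 and 1.46 (log2 fold) in the TGFβ1 libraries, against 0.38 and 1.07 in the control libraries. The TGFβ1 values were higher without overlap, and each of the 4 was under the limit of 3. Over the 7716 loci of the whole series tested in all 4 libraries, 32.1% had both TGFβ1 values above both control values and 9.54% had both below. Of the 5 RBFOX2 loci besides the site, 2 were above and 0 below, near this background. The locus 1864 nt from the 3′ end had 1.49 and 2.39 in the TGFβ1 libraries, against −0.21 and 1.85 in the control libraries, and here the groups overlapped. At 3006 nt the TGFβ1 libraries had 0.62 and 1.14 and the control libraries 0.38 and 0.58, again without overlap. The other loci, at 5151 and 71137 nt, gave overlapping groups, with TGFβ1 minus control differences of −0.09 and −0.18 on the log2 scale.

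Within the site the fold was higher towards the 3′ end of the mRNA. Over the 49 nt on the 3′ side the mean log2 fold was 8.77 and 10.13 in the TGFβ1 libraries and 8.39 and 7.66 in the control libraries. Over the 49 nt on the 5′ side it was 8.39 and 8.95 in the TGFβ1 libraries and 6.51 and 6.48 in the control libraries. The 3′ side was therefore higher in each library, by 0.38 and 1.19 in TGFβ1 and by 1.87 and 1.17 in control. The smallest step belongs to TGFβ1 replicate 1, where the 5′ side was tested as 1 long cluster and not as several. The −log10 p of the pieces ran from 105 to 141 in TGFβ1 replicate 1 and from 90.5 to 400 in TGFβ1 replicate 2, where 400 is the highest value the lists hold. They ran from 33.9 to 123 in control replicate 1 and from 31.6 to 136 in control replicate 2.

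**Figure D2:**
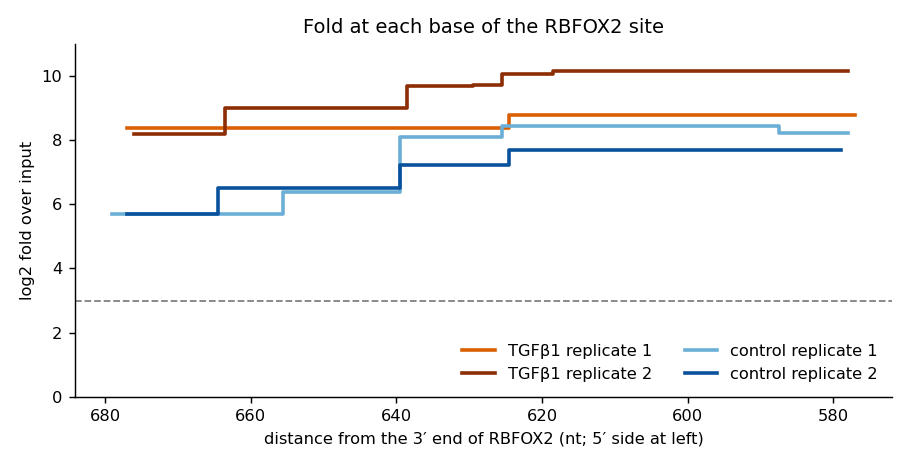
Log2 fold over input at each base of the RBFOX2 site (vertical axis, from 0) against distance from the 3′ end of the gene (nt, 5′ side at left), 1 line per library, with the limit of 3 dashed. Both TGFβ1 lines lie above both control lines at 97 of the 98 bases covered in all libraries. These bases are not separate observations, since each line is made of 3 to 6 pieces of constant value. Over 271 places of both reproducible lists, both TGFβ1 values lay above both control values at 35.1%. The lines end within 3 nt of each other on either side.

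The treatment comparison asks whether LARP6 enrichment at this site differed after TGFβ1. At the highest RBFOX2 peak (35739313 to 35739360) the log2 fold was 8.80 and 10.17 in the TGFβ1 libraries, against 8.44 and 7.69 in the control libraries. The order of the libraries was TGFβ1 replicate 2, TGFβ1 replicate 1, control replicate 1 and control replicate 2, so the groups did not overlap. The means were 9.48 ± 0.97 in TGFβ1 and 8.06 ± 0.53 in control (SD, n = 2 each). The gene was chosen on the height of this peak, so the difference of 1.42 is given without a test. The inner neighbours in this order, TGFβ1 replicate 1 and control replicate 1, were 0.36 apart, less than the 1.37 between the TGFβ1 libraries and the 0.76 between the control libraries. Without TGFβ1 replicate 2 the difference was 0.74.

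The 2 edges of the site were also set side by side. At the 5′ edge, 676 nt from the 3′ end, the log2 fold was 8.39 and 8.19 in the TGFβ1 libraries and 5.71 and 5.69 in the control libraries. The difference was 2.60, with an SD of 0.14 in TGFβ1 and 0.013 in control (n = 2 each). It was the largest over the 98 bases covered in all libraries, where the smallest was 1.04. The edges belong to the site that chose the gene, and an SD of 2 values says little about spread. At the 3′ edge, 579 nt from the 3′ end, TGFβ1 libraries had 8.80 and 10.17 and control libraries 8.22 and 7.69, a difference of 1.53. Between libraries of replicate number 1 the difference was 2.68 at the 5′ edge and 0.57 at the 3′ edge. The 5′ value of TGFβ1 replicate 1 is that of its long cluster. Without that library the difference was 2.50 at the 5′ edge and 2.21 at the 3′ edge, and between libraries of replicate number 2 it was 2.51 and 2.48. Whether the edges differ was not tested.

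A higher fold in TGFβ1 was common elsewhere too. Over 271 places of both reproducible lists with a cluster in all 4 libraries, both TGFβ1 values lay above both control values at 35.1%, and below both at 8.12%. The median difference between conditions was 0.55, and RBFOX2 with 1.42 ranked 39 of 271 from the top. Between libraries of replicate number 1 the RBFOX2 difference of 0.36 was close to the median of 0.36 (rank 138). Between those of replicate number 2 it was 2.48 against a median of 0.71 (rank 17). TGFβ1 replicate 2 stood above TGFβ1 replicate 1 by a median of 0.74 over these places, and by 1.37 at RBFOX2. Control replicate 2 stood above control replicate 1 by a median of 0.47, while at RBFOX2 it was 0.76 below it. The part of these library differences in the RBFOX2 result was not tested.

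**Figure D3:**
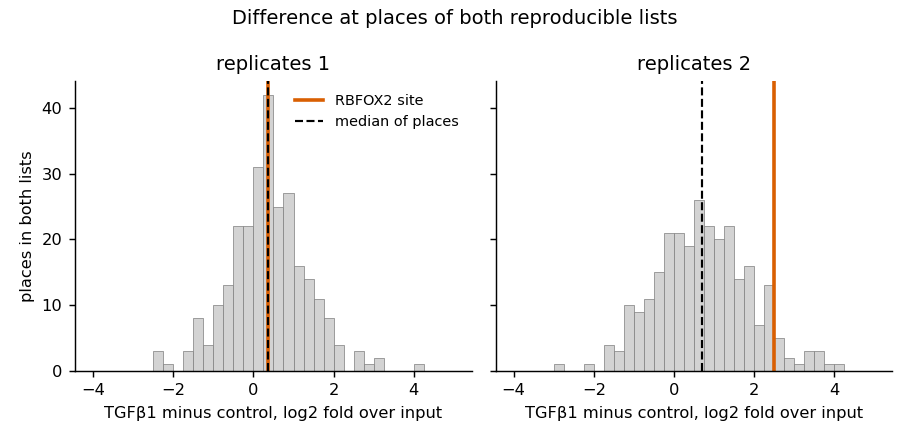
Number of places found in both reproducible lists (vertical axis, 271 in all) by the TGFβ1 minus control difference in log2 fold over input, for libraries of replicate number 1 (left) and 2 (right). The RBFOX2 site (solid line) lies on the median (dashed line, 0.36) at left, and at 2.48 against a median of 0.71 at right.

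In the reproducible lists the site was represented by 3 abutting RBFOX2 peaks for TGFβ1 and 5 for control, which merge to 1 site of 101 nt and 1 site of 100 nt. Each of the 3 TGFβ1 peaks overlapped a control peak, and each of the 5 control peaks overlapped a TGFβ1 peak. The TGFβ1 peaks had listed log2 folds of 9.49, 9.05 and 9.05 from the 3′ to the 5′ side. The control peaks had 8.29, 8.07, 7.68, 6.45 and 5.69 in that order. The first TGFβ1 value was the highest of 1008 peaks, and the highest control value ranked 12 of 627. The listed control value of 8.29 is higher than that of the overlapping cluster in either control library, 8.22 and 7.69, so a listed fold is not always the mean of the library values. At the next control peak the listed 8.07 lay beside a mean of 8.06.

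Read library by library, RBFOX2 was among the mRNAs with the highest fold. Its highest cluster ranked 2 of 5523 and 1 of 7531 protein-coding genes in the TGFβ1 libraries and 4 of 6709 and 9 of 6344 in the control libraries. In TGFβ1 replicate 1 it stood behind COL3A1, which encodes the chain of type III collagen. In control replicate 1 it stood behind COL3A1, the endocytic receptor gene LRP1 and CCNI, the gene of a cyclin-like protein. By number of tested clusters it ranked 283 and 236 in the TGFβ1 libraries and 336 and 254 in the control libraries.

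The site of RBFOX2 stood far above the other tested clusters of the gene. Outside 100 nt around the highest cluster, the highest RBFOX2 log2 fold was 2.43 and 2.97 in the TGFβ1 libraries and 1.96 and 2.07 in the control libraries. The gap was thus 6.37 and 7.20 in TGFβ1 and 6.48 and 5.62 in control. Among genes with an enriched highest cluster and at least 10 tested clusters it ranked 1 of 133 and 1 of 391 in the TGFβ1 libraries and 1 of 97 and 1 of 137 in the control libraries. The median gap of these genes was 1.31 and 1.40 in TGFβ1 and 1.44 and 1.73 in control. CCNI came next in TGFβ1 replicate 1 with a gap of 6.35, close to that of RBFOX2. In TGFβ1 replicate 2 the next was CTTN with 5.94. In control replicates 1 and 2 these were CCNI with 5.32 and MRC2, which encodes a collagen uptake receptor, with 4.74. With genes of at least 5 clusters admitted, IST1 in TGFβ1 replicate 2 and RDX in both control libraries had larger gaps. As the gene was chosen for its height and the gap comparison was not planned, these ranks carry no test.

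**Figure D4:**
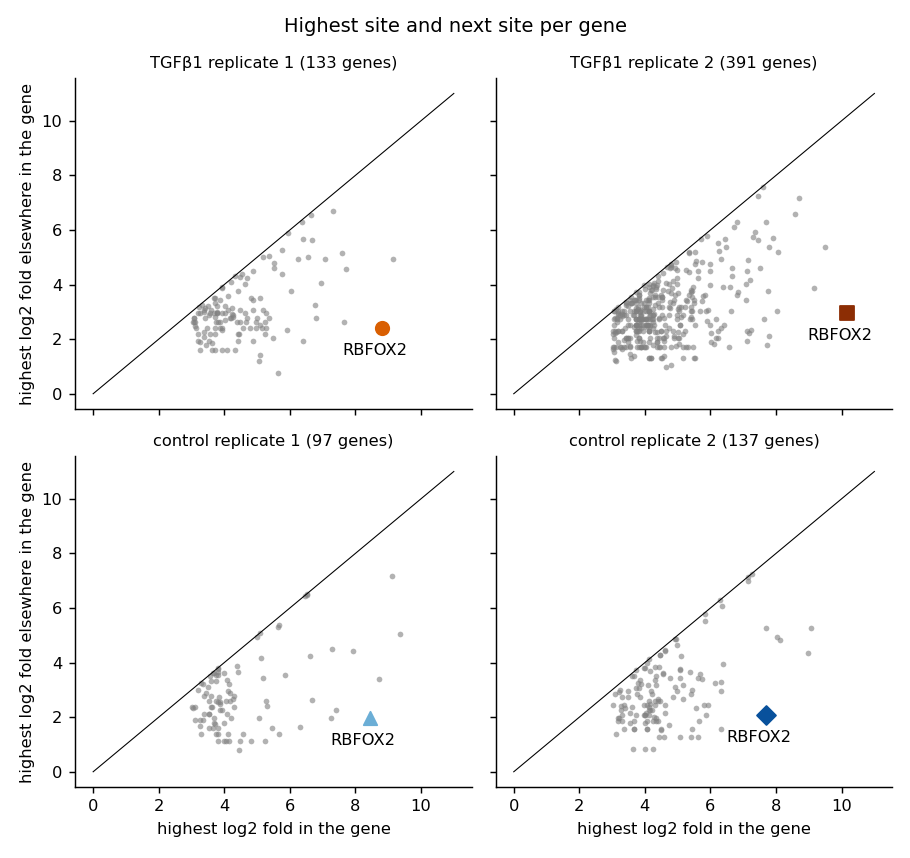
Highest log2 fold over input in a gene (horizontal axis) against the highest more than 100 nt away from it (vertical axis) for genes with an enriched highest cluster and at least 10 tested clusters, 1 panel per library, with equality as a line. RBFOX2 (large symbol) lies farthest below the line in each panel, by 5.62 to 7.20.

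The mRNAs most like RBFOX2 were sought among 179 protein-coding genes with a peak in both reproducible lists, by Euclidean distance over the highest log2 fold in the 4 libraries. IST1, whose protein acts with the ESCRT-III membrane scission machinery, was nearest at 0.92. It had 8.25 and 9.87 in the TGFβ1 libraries and 7.85 and 8.01 in the control libraries. CCNI followed at 1.65, COL3A1 at 1.82, RDX, the gene of the actin-membrane linker radixin, at 1.85 and NEU1, the gene of a lysosomal sialidase, at 2.45. None of these 5 had its highest peak within 1000 nt of the 3′ end of the gene.

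A highest peak within 1000 nt of the 3′ end was found in 42 of the 179 genes (23.5%), RBFOX2 included. Gene length was not taken into account, so in a short gene such a peak can lie closer to the 5′ end. In G0S2 it lay 908 nt from the 3′ end and 70 nt from the 5′ end, and in CCDC85B 904 and 58 nt. A single merged site in each list was found in 116 (64.8%), and 38 genes (21.2%), again with RBFOX2, had both features. By the same distance the nearest to RBFOX2 with such a 3′ peak was LRRC8A, the gene of a volume-regulated anion channel subunit, at 4.91. Its peak lay 644 nt from the 3′ end, with 7.40 and 7.18 in the TGFβ1 libraries and 5.36 and 5.75 in the control libraries. CTTN, the gene of the actin-binding protein cortactin, TMEM258, which encodes an oligosaccharyltransferase subunit, SHISA5 and CELF1 followed at 5.21, 5.36, 5.47 and 5.86.

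The paralogues of RBFOX2 had no tested cluster in any library. These are RBFOX1, known from neurons and muscle, and RBFOX3, known as the neuronal antigen NeuN. Of 8 mRNAs for partners of RBFOX proteins in the large assembly of splicing regulators, 8 were tested in both TGFβ1 libraries and 7 in both control libraries, and 0 had a reproducible peak. Of 29 other regulators of alternative splicing, 19 were tested in both libraries of either condition, and 1 in each condition had a reproducible peak. This was CELF1, which binds GU-rich RNA, with a highest log2 fold of 6.68 and 6.45 in the TGFβ1 libraries and 4.94 and 5.74 in the control libraries. Its highest peak lay 982 nt from the gene's 3′ end. Over all protein-coding genes tested in both libraries, 7.09% in TGFβ1 and 3.87% in control had a reproducible peak, so 1 of 19 is near the background. PTBP3, QKI, SRSF5 and SRSF6 each had 1 enriched cluster in TGFβ1 replicate 2 and none in the other libraries. With CELF1 this made 5 of the 22 regulators tested there, in the library in which most genes were called. Over all protein-coding genes with a tested cluster, 11.6% were enriched in that library, against 6.55% in TGFβ1 replicate 1, 2.95% in control replicate 1 and 5.06% in control replicate 2. SRSF5 also passed the fold limit in control replicate 2, with 3.26 beside 3.25 in TGFβ1 replicate 2, but missed the p limit there. PTBP3, QKI and SRSF6 stayed below a log2 fold of 3 in all libraries but TGFβ1 replicate 2.

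Of 10 genes with exons known to be regulated by RBFOX proteins, 7 were tested in both TGFβ1 libraries and 8 in both control libraries, and 1 in each condition had a reproducible peak, beside 7.09% and 3.87% of all such genes. With so few members nothing is read from that count. The gene was CTTN again, with 5.91 and 7.73 in the TGFβ1 libraries and 5.68 and 5.41 in the control libraries, 221 nt from its 3′ end. FN1, the fibronectin gene, was tested at 158 and 195 clusters in the TGFβ1 libraries and at 145 and 153 in the control libraries. It had 2 enriched clusters of 195 in TGFβ1 replicate 2, where 3.64% of all clusters were enriched, and none in the others. The highest FN1 log2 fold was 2.49 and 3.03 in the TGFβ1 libraries and 2.21 and 2.997 in the control libraries. MEF2D, a transcription factor gene, had 1 enriched cluster in TGFβ1 replicate 2 and none in the others. Its highest log2 fold was 3.43 and 4.15 in the TGFβ1 libraries and 2.96 and 3.58 in the control libraries. In TGFβ1 replicate 1 and control replicate 2 that cluster thus missed only the p limit.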

How the data were processed

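Per the submitters' processing notes, the authors used UMI-tools, cutadapt and STAR with the build GRCh38; versions are missing there. How peaks were called, set against input and joined across replicates is stated in no source used here. The deposited lists have no header. From its range, 1 column of the authors' lists was taken for a log2 fold over size-matched input and another for its −log10 p-value as deposited. Peaks were called per library. Inputs had no list of their own here.

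Regions were assigned at their midpoint and strand to genes of a RefSeq table (GRCh38.p14): small RNA genes first, then protein-coding, then the shortest. Strands came from the RefSeq promoter table, or where it gave none, as for RBFOX2, from the majority of clusters. Regions at most 20 nt apart were merged, and overlap meant at least 1 nt. A place took the highest fold of the clusters that overlapped it. Coordinates are 1-based. Per-library values were compared by exact permutation, and the code was checked on simulated data. Alternatives were other limits, overlaps and merging distances, each library left out and the replicate block. Gene, lists and tests were chosen with earlier results of these data known. Named genes were RBFOX2, its paralogues, list members with a reproducible peak (up to 6 per list), and the 5 genes nearest to RBFOX2, overall and among those with a 3′ peak; others, such as MRC2, were named after their values were seen. The work used Python 3.11.15, NumPy 2.4.6, pandas 2.3.3 and matplotlib 3.10.9.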

Additional observations from a re-analysis of the deposited data

How the results depend on the processing

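With 1 library left out, the difference at the highest RBFOX2 peak ran from 0.74 to 2.11. It was 1.44 as a length-weighted mean and 1.42 with clusters within 50 nt. The groups did not overlap there, so leaving out 1 library could not change the sign, and no support is drawn from it. TGFβ1 minus control numbers of enriched pieces ran from −2.5 to 0.5, and of tested clusters from −7.0 to 5.0, with 1 library left out, so neither has a settled direction. Neither the gap comparison nor its limit of 10 clusters per gene was planned, and the limit of 5 was chosen after seeing the data. With genes of at least 5 clusters RBFOX2 ranked 2 by gap in TGFβ1 replicate 2, 2 in control replicate 1 and 2 in control replicate 2. The replicate block gave 1.42 for the highest peak, −1.0 for pieces and −1.0 for tested clusters. Replicate numbers are not known to pair samples, and the deviations of replicates correlated at 0.013 between conditions over 271 places. Reproducible peaks, merged sites and shared peaks of RBFOX2 kept their counts under the alternatives run. With 2 libraries per condition the exact permutation test used here cannot pass 0.05, and the lists hold no read counts.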

Other observations

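Among the genes listed beside RBFOX2, some differed in how many clusters were tested. These were picked after their values were seen, and the share of all genes with such differences is not given here, so nothing is read from them. PLOD2, the gene of a collagen lysyl hydroxylase, had 12 and 23 tested clusters in the TGFβ1 libraries and 2 and 1 in the control libraries. CELF2, a paralogue of CELF1, had 1 and 9 in the TGFβ1 libraries and 55 and 39 in the control libraries. CACNA1C, the gene of a calcium channel subunit, had 50 and 74 in the TGFβ1 libraries and 202 and 108 in the control libraries. None of the 3 had an enriched cluster in any library. The totals were 31137 and 54536 clusters in the TGFβ1 libraries and 51273 and 39880 in the control libraries, and the part of RNA amount or depth in these counts was not tested.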
